A study of Mus musculus with 6 samples.

Results

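The bone morphogenetic protein (BMP) pathway and the *Id* genes were examined in mouse embryonic stem (mES) cells through 8 genes of the pathway. These were *Id1*, *Id2*, *Id3*, *Bmp4*, *Bmpr1a*, *Smad1*, *Smad5* and *Smad6*. They were chosen with earlier results of these data known. Shares of the 8 genes set against those of all genes are therefore a description only. All 8 were among the 16668 genes listed in every library, and all 8 passed the filter of a mean of 0.5 RPKM (read number scaled by exon length in kilobases and by the total of mapped reads), as did 11538 genes in all. The cells were E14, a feeder-independent line of 129/Ola origin, at passage 3 to 5, grown with LIF at 1000 U/ml and with the inhibitors PD0325901 at 1 µM, which blocks MEK, and CHIR99021 at 3 µM, which blocks GSK3 (2i + LIF). There were 6 libraries in 3 labelled groups of 2: control (wild type), Ring1B-KD and Dzip3-KD. Ring1B, the product of *Rnf2*, and Dzip3 are enzymes that attach ubiquitin to histone H2A, and the last 2 labels stand for their knockdown. According to the methods of the study, the knockdowns were transient siRNA transfections, controls received a control siRNA, and replicates were biological duplicates. The labels give no further details of the cultures.

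The deposited files carry a number and a condition word that differs from the sample label for 4 of the 6 libraries. File 01 is labelled control 1 and has the word control. File 02 is labelled control 2 and has the word Ring1BKD. File 03 is labelled Ring1B-KD 1 and has the word Dzip3KD. File 04 is labelled Ring1B-KD 2 and has the word control. File 05 is labelled Dzip3-KD 1 and has the word Ring1BKD. File 06 is labelled Dzip3-KD 2 and has the word Dzip3KD. Values are therefore given by file number, files 01 to 03 are called the first set and files 04 to 06 the second set, and neither the number nor the word is taken as a treatment. The control label occurs only in the first set and the Dzip3-KD label only in the second, so these labels and the sets can be separated in a fit only through Ring1B-KD, which has 1 library in each set.

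The libraries held 3015349 to 3583612 mapped reads, as recovered from the steps of the RPKM values. Across genes, libraries of the same set correlated at 0.960 to 0.974 and libraries of different sets at 0.940 to 0.957 (Pearson r of log2(RPKM + 1), 6 and 9 pairs; genes are not independent replicates). All 8 ES cell markers, such as *Pou5f1* and *Nanog*, were at 40.0 RPKM or more in every library, and their sum was 1380 to 1787 RPKM in the first set and 1585 to 1805 RPKM in the second. Markers of other cell types had sums far below that of the ES cell markers. The sums were 1.67 to 3.42 RPKM for fibroblasts (5 of 8 markers listed), 4.24 to 6.35 RPKM for primitive endoderm (7 of 7) and 2.13 to 2.86 RPKM for mesoderm (6 of 6). They were 8.76 to 15.5 RPKM for trophoblast (5 of 7), with *Tfap2c* at 6.46 to 14.3 RPKM. For neural cells (7 of 7) they were 19.7 to 38.5 RPKM, with *Tubb3* at 12.9 to 28.8 RPKM. *Rnf2* was at 30.6, 20.4 and 26.8 RPKM in files 01 to 03 and at 28.8, 19.4 and 28.2 RPKM in files 04 to 06, lowest in the file with the word Ring1BKD in both sets. *Dzip3* was at 2.24, 2.68 and 1.18 RPKM in files 01 to 03 and at 1.89, 1.70 and 1.31 RPKM in files 04 to 06, lowest in the file with the word Dzip3KD in both sets. The Ring1B-KD label thus did not go with low *Rnf2*, and every label below stands for the library that carries it.

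BMP ligands such as Bmp4 bind a pair of receptor kinases, type I (Bmpr1a among them) and type II, which phosphorylate Smad1 and Smad5. These Smads enter the nucleus with Smad4 and activate target genes, of which the *Id* genes are the best known. Smad6, itself a target, inhibits the pathway. Id proteins lack a DNA-binding region and hold E proteins, the partners of lineage transcription factors, away from DNA. In ES cells in serum-free medium, BMP4 acting through *Id* genes is known to support self-renewal together with LIF, while 2i medium sustains self-renewal without added BMP.

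Promoter sequences from RefSeq (GRCm38.p6, not the mm9 build of the values) were matched for 7 of the 8 genes, and the 250 bases before the start are shown for *Id3* and *Bmp4*, which passed the test between the file sets described below, and for *Id2*, whose mean went the other way. Capitals mark the Smad box GTCT on either strand and the GC-rich Smad1/5 motif GGCGCC.
Id3 (chr4:136143572-136143821, plus strand): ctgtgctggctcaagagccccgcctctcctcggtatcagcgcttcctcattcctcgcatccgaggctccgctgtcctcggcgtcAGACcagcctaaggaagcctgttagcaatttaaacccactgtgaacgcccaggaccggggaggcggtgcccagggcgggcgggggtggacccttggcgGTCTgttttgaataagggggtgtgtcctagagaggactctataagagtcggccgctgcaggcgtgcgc
Bmp4 (chr14:46390670-46390919, minus strand): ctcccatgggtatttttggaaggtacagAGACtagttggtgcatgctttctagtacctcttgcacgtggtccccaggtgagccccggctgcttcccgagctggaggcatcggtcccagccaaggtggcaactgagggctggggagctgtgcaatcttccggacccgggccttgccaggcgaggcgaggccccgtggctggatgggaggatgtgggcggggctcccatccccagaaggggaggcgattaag
Id2 (chr12:25096093-25096342, minus strand): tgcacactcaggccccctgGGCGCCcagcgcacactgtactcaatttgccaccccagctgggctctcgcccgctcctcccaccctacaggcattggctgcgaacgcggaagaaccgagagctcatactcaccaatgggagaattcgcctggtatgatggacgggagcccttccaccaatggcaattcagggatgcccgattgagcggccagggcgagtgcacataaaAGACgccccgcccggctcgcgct
The window of *Id3* held 2 Smad boxes, that of *Bmp4* 1, and that of *Id2* 1 with 1 GGCGCC. E-boxes (CANNTG), the sites of E proteins and their partners, numbered 0, 3 and 1. Of 32851 promoter windows of the same length, 82.9% held a Smad box, 9.59% held GGCGCC and 66.2% held an E-box, so these matches are a description only.

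*Id3* and *Bmpr1a* were the highest of the 8 genes and *Smad6* the lowest. Ranked by the mean over the 6 libraries, *Id3* was at 10.8 ± 8.92 RPKM (SD, n = 6), *Bmpr1a* at 10.5 ± 1.66, *Smad5* at 4.24 ± 0.358, *Smad1* at 3.90 ± 0.665, *Id2* at 3.43 ± 1.40, *Bmp4* at 2.81 ± 2.03, *Id1* at 1.53 ± 0.736 and *Smad6* at 1.02 ± 0.239 RPKM. Among all listed genes these levels lay between the 38.6th percentile for *Smad6* and the 82.9th for *Id3*. Of the 7 pairs of neighbours in this order, only *Bmpr1a* and *Smad5* had ranges that did not overlap. The order differed between the sets: *Id3* was above *Bmpr1a* in 3 of 3 libraries of the first set and in 0 of 3 of the second, and *Bmp4* was above *Id2* in 3 of 3 libraries of the first set and in 0 of 3 of the second. *Id3* had rank 1 of the 8 in each library of the first set and 4 or 5 in those of the second, where *Bmpr1a* had rank 1.

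**Figure D1:**
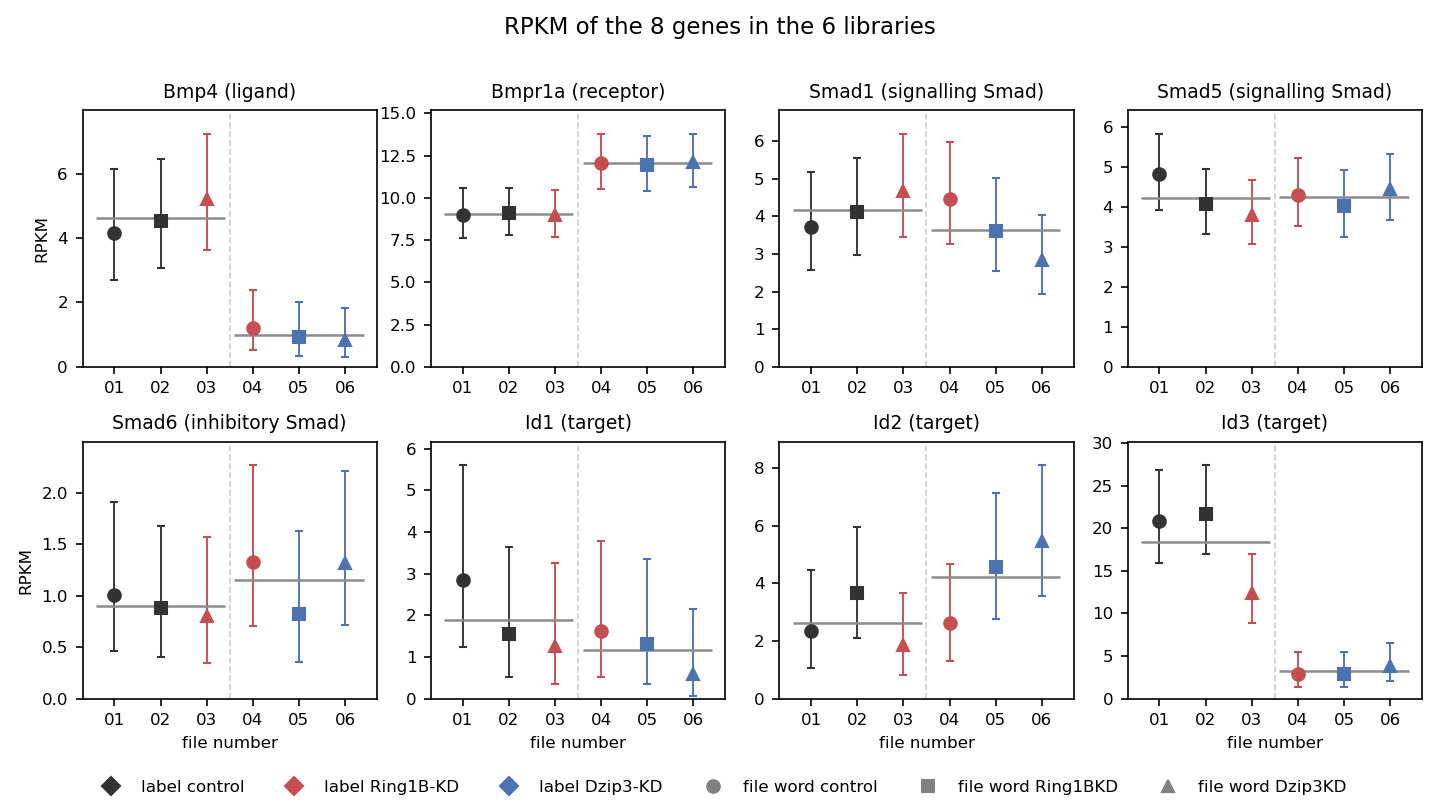
RPKM of the 8 genes (vertical axes, 1 scale per gene) by file number (horizontal axes). Colour gives the sample label, symbol shape the condition word of the file, bars the 95% exact Poisson interval of the recovered reads (counting error only) and grey lines the mean of each set (n = 3); *Id3* and *Bmp4* are lower in all 3 files of the second set, *Bmpr1a* is higher in all 3, and the other 5 genes overlap between the sets.

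*Bmp4*, the ligand of the group, was lower in the second set. *Bmp4* (chr14:47003195-47010344, minus strand, mm9) was at 4.16, 4.53 and 5.21 RPKM in files 01 to 03, from 25, 31 and 35 reads, and at 1.21, 0.922 and 0.840 RPKM in files 04 to 06, from 8, 6 and 6 reads. Every library of the first set was above every library of the second. The mean was 4.63 ± 0.529 RPKM (SD, n = 3) in the first set and 0.992 ± 0.197 RPKM (SD, n = 3) in the second, 4.67-fold lower. The difference of mean log2(RPKM + 1), second set minus first, was -1.50 (SE 0.16, limma adjusted p 0.00240), rank 17 by p among the genes tested. The library labelled Ring1B-KD 1 had the highest *Bmp4* value of the 6, and the library labelled Ring1B-KD 2 lay with those labelled Dzip3-KD.

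*Bmpr1a*, a type I receptor, was higher in the second set by a small step. *Bmpr1a* (chr14:35223920-35316527, minus strand, mm9) was at 9.02, 9.10 and 8.98 RPKM in files 01 to 03 and at 12.1, 12.0 and 12.1 RPKM in files 04 to 06, from 149 to 238 reads. The 3 values within each set lay close together, and the sets did not overlap. The mean was 9.03 ± 0.0606 RPKM (SD, n = 3) in the first set and 12.1 ± 0.0885 RPKM (SD, n = 3) in the second, 1.33-fold higher. The log2 difference of 0.38 (SE 0.12, limma adjusted p 0.0876) did not pass the threshold, in a fit whose estimate of the spread is shared in part over genes. It passed without that sharing (adjusted p 0.00645) and with voom on recovered reads (adjusted p 0.0456). The intervals of counting error were 7.63 to 10.6 RPKM in file 01 and 10.5 to 13.8 RPKM in file 04. They are wider than the spread of the libraries within each set. The pass without sharing thus rests on a within-set spread smaller than the counting error.

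The Smads did not pass the test between the sets. *Smad1* (chr8:81862294-81923417, minus strand, mm9) was at 3.70, 4.12 and 4.67 RPKM in files 01 to 03 and at 4.47, 3.62 and 2.84 RPKM in files 04 to 06. *Smad5* (chr13:56804371-56843738, plus strand, mm9) was at 4.81, 4.06 and 3.80 RPKM and at 4.30, 4.01 and 4.43 RPKM. *Smad6* (chr9:63800953-63869866, minus strand, mm9), the inhibitory Smad, was at 1.00, 0.883 and 0.798 RPKM and at 1.32, 0.824 and 1.31 RPKM, from 8 to 14 reads. The sets overlapped for each of the 3 genes. The log2 differences were -0.16 (95% interval -0.55 to 0.22) for *Smad1*, 0.01 (-0.31 to 0.33) for *Smad5* and 0.18 (-0.22 to 0.57) for *Smad6*, with limma adjusted p of 0.614, 0.972 and 0.596. The sign for *Smad5* depended on single libraries: it was -0.01 without control 2 or Dzip3-KD 2, and -0.05 without Ring1B-KD 1.

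Of the 3 *Id* genes among the 8, *Id3* passed the test between the sets, and *Id1* and *Id2* did not. Differences between the 3 genes were not tested. *Id4*, an *Id* gene outside the 8, averaged 4.79 RPKM and did not pass (log2 difference 0.22, limma adjusted p 0.554). *Id3* (chr4:135699412-135701670, plus strand, mm9) was at 20.9, 21.7 and 12.4 RPKM in files 01 to 03, from 60, 71 and 40 reads, and at 2.86, 2.89 and 3.81 RPKM in files 04 to 06, from 9, 9 and 13 reads. The sets did not overlap, and the library labelled Ring1B-KD 1 was the lowest of the first set while still above every library of the second. The mean of *Id3* was 18.3 ± 5.13 RPKM (SD, n = 3) in the first set and 3.18 ± 0.539 RPKM (SD, n = 3) in the second, 5.76-fold lower. The log2 difference was -2.18 (SE 0.21, limma adjusted p 0.00188), rank 8 by p among the genes tested.

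*Id2* (chr12:25778666-25780957, minus strand, mm9) was at 2.35, 3.67 and 1.86 RPKM in files 01 to 03, from 9, 16 and 8 reads, and at 2.62, 4.57 and 5.48 RPKM in files 04 to 06, from 11, 19 and 25 reads. The sets overlapped, since file 02 was above file 04. The log2 difference of *Id2* was 0.52 (SE 0.25, limma adjusted p 0.252). *Id1* (chr2:152561987-152563146, plus strand, mm9) was at 2.84, 1.56 and 1.27 RPKM in files 01 to 03, from 8, 5 and 4 reads, and at 1.62, 1.31 and 0.598 RPKM in files 04 to 06, from 5, 4 and 2 reads. Its log2 difference was -0.40 (SE 0.25, limma adjusted p 0.378) and the sets overlapped. With at most 8 reads per library, *Id1* is the least precisely measured of the 8. In RNA from whole cultures, fewer cells with a transcript and less of it per cell cannot be told apart.

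Between the sets, 2 of the 8 genes thus passed the threshold, both lower in the second set, where 5.53% of all genes tested passed, 2.44% lower and 3.09% higher. At an unadjusted p under 0.05 it was 3 of 8, against 23.2% of all genes, and the sets did not overlap for 3 of 8, against 28.6%. The median log2 difference was -0.08 over the 8 genes and -0.04 over all genes tested. *Id3* and *Bmp4* passed in each of the 6 fits that left out 1 library, with log2 differences of -2.42 to -2.04 for *Id3* and -1.58 to -1.43 for *Bmp4*, while the count over all genes fell from 638 to 67 without the library labelled Dzip3-KD 2. Beside these values, the sum of neural markers was 19.7 to 28.0 RPKM in the first set and 27.2 to 38.5 RPKM in the second, led by *Tubb3* with 12.9 to 28.8 RPKM and with *Neurog1* at 0 in 5 of 6 libraries, and the primitive endoderm sum was 5.39 to 6.35 and 4.24 to 4.85 RPKM, led by *Lama1* with 3.09 to 3.96 RPKM and with *Foxa2* at 0 in 5 of 6. The trophoblast sum was 8.76 to 10.6 and 9.30 to 15.5 RPKM, led by *Tfap2c* with 6.46 to 14.3 RPKM and with *Cdx2* at 0 in 3 of 6. Between the sets 0 of the 4 neural, 2 primitive endoderm, 2 trophoblast and 8 ES cell markers tested passed the threshold, and 1, 1, 2 and 5 of them had an unadjusted p under 0.05. All 4 neural markers tested were higher in the second set, with log2 differences of 0.34 to 0.88 (median 0.50). The 2 primitive endoderm markers were lower (-0.68 to -0.09), and the 2 trophoblast markers went 1 each way (-0.69 and 0.49). For the ES cell markers the log2 differences were -0.48 to 0.37, with 4 higher and 4 lower. The part of these markers in the result was not tested. Without sharing of the spread over genes neither passed (adjusted p 0.0784 for *Id3* and 0.0531 for *Bmp4*).

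**Figure D2:**
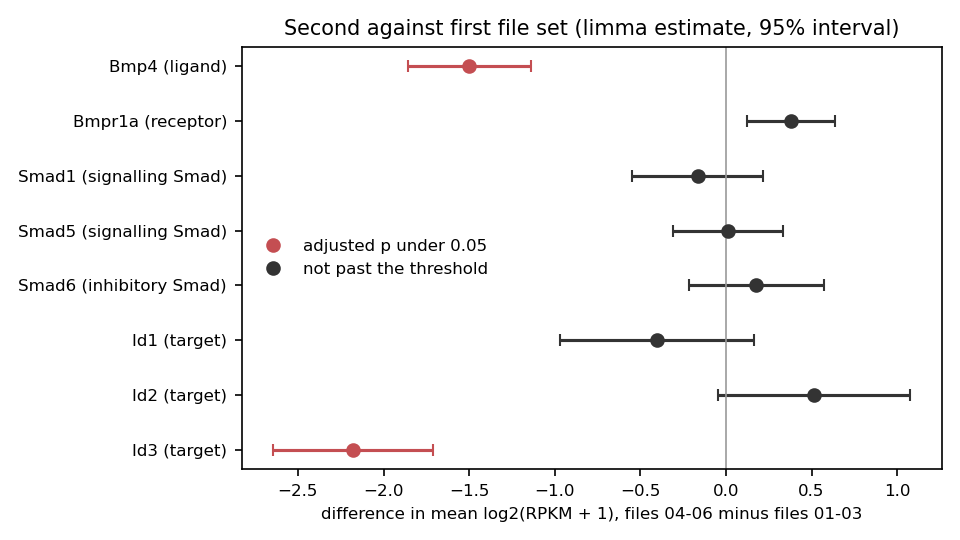
Difference in mean log2(RPKM + 1) of the second set (files 04 to 06) minus the first (files 01 to 03), n = 3 each, for the 8 genes, with the 95% interval of the limma fit as bars. *Id3* at -2.18 and *Bmp4* at -1.50 passed an adjusted p of 0.05 (red); the interval of *Bmpr1a* excludes 0 but its adjusted p was 0.0876, and the intervals of the other 5 genes include 0.

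The rest of the pathway was read from lists of BMP ligands, receptors, Smads, inhibitors, antagonists, targets and E proteins. Of 70 such genes outside the 8, 61 were listed and 37 passed the filter. Between the sets 2 of these 37 passed the threshold as higher and 1 as lower in the second set. Of all genes tested, 3.09% passed as higher and 2.44% as lower, so the share is near that of all genes. By direction alone, 16 of the 37 were higher and 21 lower. The median log2 difference of the 37 was -0.03. *Tob1*, an antiproliferative protein that represses BMP Smads, was at 14.5, 12.8 and 13.0 RPKM in files 01 to 03 and at 22.4, 23.3 and 23.4 RPKM in files 04 to 06 (log2 difference 0.74, limma adjusted p 0.0119). *Twsg1*, a secreted BMP-binding protein, was at 7.13, 7.56 and 5.93 RPKM and at 12.0, 12.9 and 12.2 RPKM (log2 difference 0.77, limma adjusted p 0.0149). *Ctdsp1*, a phosphatase that acts on Smads among other substrates, was at 12.4, 12.6 and 12.4 RPKM and at 7.96, 7.06 and 7.14 RPKM (log2 difference -0.69, limma adjusted p 0.0159). All 3 lost the threshold without Ring1B-KD 2 (adjusted p 0.0525 to 0.0602) or without Dzip3-KD 2 (0.0579 to 0.0693), and *Ctdsp1* also without control 1 (0.0539). All 3 also lost it without sharing of the spread over genes (0.0517 to 0.0800).

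Among 15 BMP target genes, 14 were listed and 8 passed the filter, and *Id3* was the 1 that passed the test between the sets. *Dusp9*, a MAP kinase phosphatase induced by BMP in ES cells, was at 15.1, 17.7 and 10.3 RPKM in files 01 to 03 and at 7.51, 9.52 and 4.96 RPKM in files 04 to 06. The sets did not overlap, and the log2 difference was -0.89 (limma adjusted p 0.0591). It passed in 4 of 12 alternatives, among them voom on recovered reads (log2 difference -0.99, limma adjusted p 0.00922). Others were the fits without Ring1B-KD 1 (adjusted p 0.0482) or Dzip3-KD 1 (0.0470). *Msx2*, a homeobox gene, was at 1.38, 1.08 and 1.37 RPKM and at 0.840, 0.283 and 0.516 RPKM, from 2 to 10 reads (log2 difference -0.57, limma adjusted p 0.115). *Klf2*, a pluripotency factor, was at 41.6 to 54.1 RPKM with a log2 difference of -0.03.

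Of the 16 ligands, 12 were listed and 5 passed the filter, and *Bmp4* was the 1 that passed the test between the sets. *Gdf3*, a TGF-beta family ligand of pluripotent cells, was the highest at 30.2 to 43.2 RPKM. Of the 11 receptors and co-receptors 8 passed the filter and 0 passed the test, the smallest adjusted p being that of *Bmpr1a*. The levels of 17 of the 37 genes were on average at or above 5 RPKM, among them *Fkbp1a*, a protein that binds type I receptors, with a mean of 47.6 RPKM, *Smad4* with 10.9, *Smad7*, the other inhibitory Smad, with 10.2, and the E protein genes *Tcf3* with 9.88 and *Tcf4* with 6.26 RPKM. All 3 E protein genes had lower means in the second set, with log2 differences of -0.26 to -0.10 and adjusted p of 0.286 or more.

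**Figure D3:**
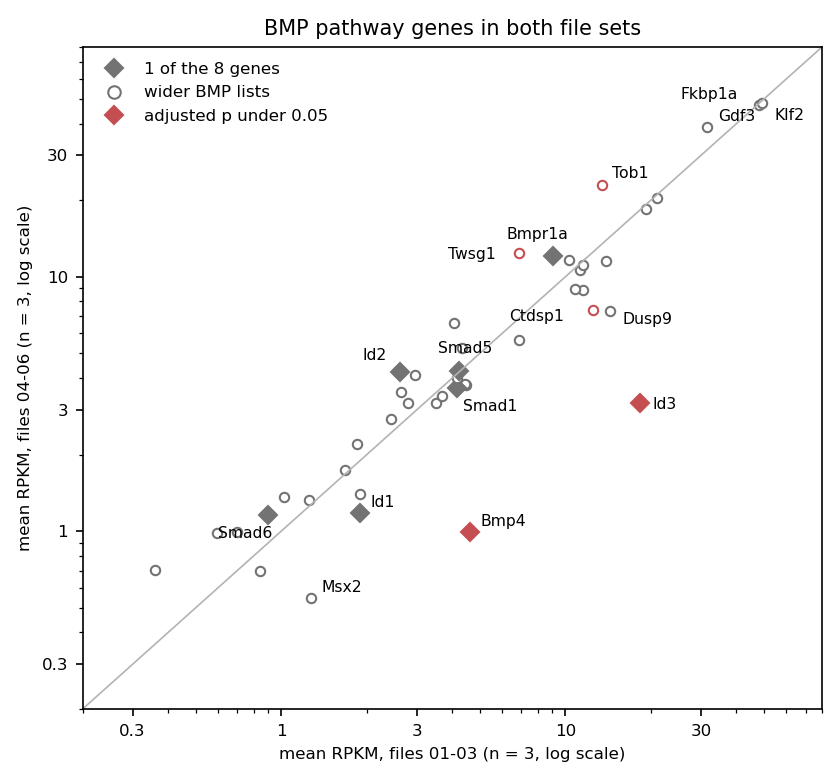
Mean RPKM in files 01 to 03 (horizontal axis) and files 04 to 06 (vertical axis), n = 3 each, both on log scales, for the 8 genes (diamonds) and the 37 other BMP pathway genes tested (circles). Most genes lie near the line of equality, while *Id3*, *Bmp4* and *Ctdsp1* (red) lie below it and *Tob1* and *Twsg1* (red) above it.

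By sample label, none of the 8 genes passed the threshold in either comparison, as for all genes (0% called in both). The comparisons share the 2 control libraries. For Ring1B-KD against control, 1 of 8 had an unadjusted p under 0.05, against 5.1% of all genes. For Dzip3-KD against control it was 4 of 8, against 12.2% of all genes, with the 2 labels in different sets. With the file set as a block it was 0 of 8, against 654 of the 11538 genes. Without sharing of the spread over genes it was also 0 of 8, against 1054 of the 11538 genes. *Id3* was at 21.3 ± 0.594 RPKM (SD, n = 2) under the label control, 7.65 ± 6.78 under Ring1B-KD and 3.35 ± 0.647 under Dzip3-KD, with log2 differences from control of -1.63 (SE 0.47, limma adjusted p 0.902) and -2.37 (SE 0.47, limma adjusted p 0.254). *Bmp4* was at 4.35 ± 0.265, 3.21 ± 2.82 and 0.881 ± 0.0576 RPKM (SD, n = 2), with log2 differences of -0.53 (SE 0.41, adjusted p 0.922) and -1.51 (SE 0.41, adjusted p 0.306). For both genes the libraries labelled Ring1B-KD lay 1 in each set, at 12.4 and 2.86 RPKM for *Id3* and at 5.21 and 1.21 RPKM for *Bmp4*.

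*Id2* and *Id1* were the other members with an unadjusted p under 0.05 for the label Dzip3-KD. *Id2* was at 3.01 ± 0.934 RPKM (SD, n = 2) under control and 5.03 ± 0.645 RPKM under Dzip3-KD (log2 difference 0.61, limma adjusted p 0.393). *Id1* was at 2.20 ± 0.905 and 0.954 ± 0.504 RPKM (log2 difference -0.71, limma adjusted p 0.393). With the file set as a block, the log2 difference of *Bmp4* was 0.22 for Ring1B-KD and -0.02 for Dzip3-KD, and that of *Id3* was -0.73 and -0.57, none past the threshold. For Dzip3-KD in the same fit, *Id1* was at -0.91 and *Id2* at 0.27, also not past it. In that fit the difference for Ring1B-KD is that of Ring1B-KD 1 from the 2 control libraries, so it rests on 1 library of that label. The difference for Dzip3-KD rests on the pair of libraries labelled Ring1B-KD that link the sets. The call for Dzip3-KD depended on the Ring1B-KD libraries in the fit, since *Id3* passed without Ring1B-KD 1 (adjusted p 0.0121) and both *Id3* and *Bmp4* passed without Ring1B-KD 2 (0.0105 and 0.0450).

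By condition word within the sets, none of the 8 genes passed the threshold. For the word Ring1BKD against the word control, with the set as a block, 0 of 8 passed where 0.416% of all genes did, and 0 of 8 had an unadjusted p under 0.05 where 8.31% of all genes did. For the word Dzip3KD, 0 of 8 passed (0% of all genes) and 1 of 8 had an unadjusted p under 0.05 (6.52% of all genes). That gene was *Id1*, at 2.84 RPKM in file 01 (labelled control 1) against 1.27 in file 03 (labelled Ring1B-KD 1), and at 1.62 RPKM in file 04 (labelled Ring1B-KD 2) against 0.598 in file 06 (labelled Dzip3-KD 2). The log2 difference was -0.74 (SE 0.21, limma p 0.00841, adjusted p 0.754), and the values rest on 2 to 8 reads.

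*Id2* was higher under the word Ring1BKD than under the word control in both sets, 1.56-fold in file 02 (labelled control 2) and 1.75-fold in file 05 (labelled Dzip3-KD 1), with a log2 difference of 0.55 (SE 0.27, limma adjusted p 0.621). Under the word Dzip3KD, *Id2* was at 0.794 times the value of the word control in the first set and at 2.10 times in the second. *Id3* was at 1.04 and 1.01 times under Ring1BKD, and at 0.596 and 1.33 times under Dzip3KD. *Bmp4* was at 1.09 and 0.759 times under Ring1BKD, and at 1.25 and 0.692 times under Dzip3KD. For these genes the direction under Dzip3KD differed between the sets. Genes with the same direction in both sets were *Id1*, *Smad5* and *Smad6* lower and *Id2* and *Id3* higher for Ring1BKD, and *Id1* and *Smad6* lower for Dzip3KD. In the second set 2 of these directions are near ties. *Id3* had 9 reads in both file 05 and file 04. *Smad6* in file 06 was at 0.993 times its value in file 04, from 14 against 13 reads. Among all genes tested, 40.6% were lower and 18.5% higher in both sets for Ring1BKD, and 29.5% lower and 22.3% higher for Dzip3KD.

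**Figure D4:**
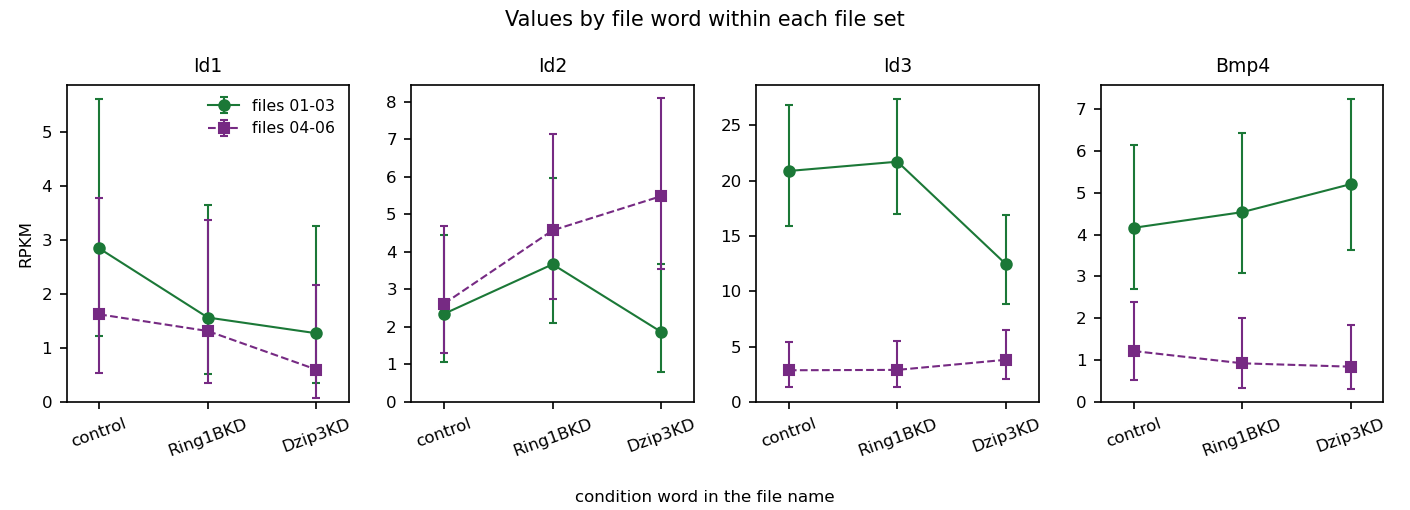
RPKM of *Id1*, *Id2*, *Id3* and *Bmp4* (vertical axes) by condition word of the file (horizontal axes), with lines joining the 3 files of a set and bars for the 95% exact Poisson interval of the recovered reads. For *Id3* and *Bmp4* every file of the first set lies above every file of the second; *Id1* is highest under the word control in both sets.

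In the wider lists 0 of 37 genes passed for either word, and 2 of 37 had an unadjusted p under 0.05 for each, against 8.31% of all genes for Ring1BKD and 6.52% for Dzip3KD, so neither count stands above that of all genes. For Ring1BKD these were *Klf2*, at 0.787 and 0.771 times the word control in the first and second set (limma adjusted p 0.480), and *Fstl1*, a secreted follistatin-like protein (adjusted p 0.518). *Id4*, *Gdf3* and *Dusp9* followed by p, at adjusted p of 0.599 to 0.658. For Dzip3KD they were *Dusp9*, at 0.683 and 0.661 times the word control, and *Acvr2b*, an activin type II receptor, at 1.61 and 4.30 times from 3 to 14 reads (adjusted p 0.754 for both). *Ctdsp2*, *Smad3* and *Ppm1a* followed at adjusted p of 0.769 to 0.777. *Dusp9* was thus lower under Dzip3KD in both sets, as were 29.5% of all genes tested, besides being lower in the second set. Neither difference passed the threshold. *Dusp9* was picked by its p in a fit over both sets, so the shared direction adds no support.

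The genes whose pattern over the 6 libraries was most like *Id1*, *Id2* or *Id3* were sought among the 5508 genes that averaged 5 RPKM or more. Likeness was the Pearson r of log2(RPKM + 1) over 6 libraries that fall into sets, given as a description. For *Id3* they were *Birc6* (0.998), *H3f3b* (0.998) and *Kat7* (0.993). *H3f3b*, a histone H3.3 gene, was at 171 to 209 RPKM in the first set and 110 to 118 RPKM in the second. For *Id1* they were *Vps35* (0.993), *Tmem245* (0.985) and *Arcn1* (0.975), and for *Id2* they were *Fam96a* (0.980), *Nabp1* (0.976) and *Tmem64* (0.971). *Id1* and *Id2* were measured by at most 25 reads per library, so their order of likeness carries that counting error.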

How the data were processed

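RNA-seq values of 6 libraries of E14 mES cells were used, with groups taken from the sample labels. The authors deposited 1 list of RPKM values per library (stranded mRNA libraries, MiSeq, reads aligned to mm9 with 1 mismatch allowed and counted where unique to a gene). The gene annotation and software versions are not given in the sources used here. The unit adjusts for depth and for exon length, and leaves shifts in RNA composition uncorrected.

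Whole reads were recovered from the RPKM steps for 15515 of 16668 genes (93.1%), within 0.01 reads at low and 0.2 reads at high counts, with exon lengths of 100 to 20000 bp and values under 0.001 RPKM (457 values) taken as 0. The share was 1.15% after 5% noise and 92.7% without noise in 1481 genes above 0 in all 6 libraries. Lengths equalled an annotated transcript for 21.3% of genes. Of the mapped reads, the recovered genes held 1019504 to 1204596 per library. At the recovered depth, 3 reads on a 2 kb transcript are 0.419 to 0.497 RPKM. Intervals are 95% exact Poisson and cover counting error only, since PCR duplicates cannot be told from molecules.

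Comparisons used limma 3.58.1 (R 4.3.3), moderated with trend, on log2(RPKM + 1) for the 11538 genes that averaged 0.5 RPKM or more, with Benjamini-Hochberg adjustment over these genes and a threshold of 0.05, two-sided. Differences on this scale understate the change of low genes. Label groups shared 1 fit of 6 libraries, the file sets (01 to 03, 04 to 06) were compared 3 against 3, and file words were fitted with the set as a block. P-values measure the spread between these libraries. A one-way model without moderation, the kind of model the study used, was run as an alternative. It kept the scale, adjustment and threshold given above. The study instead combined a looser p threshold with a fold-change limit, so its calls were not repeated. Other alternatives were a pseudocount of 0.1, no filter, 75th percentile scaling, voom on recovered reads, leaving out each library, a replicate block, the file set as a block, the file word as a covariate, no set term and only the groups compared. Named genes outside the 8 were those of the BMP lists past the threshold. Added to these were the 5 with the smallest p in the set and word comparisons, and those at or above 5 RPKM for levels. The 3 most like each of *Id1*, *Id2* and *Id3* were also named. The code was tested on simulated reads. The 8 genes, the lists and the rules were chosen with earlier results of these data known. Coordinates are GENCODE M1 on NCBIM37 (mm9).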

Additional observations from a re-analysis of the deposited data

How the results depend on the processing

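Between the file sets, *Id3* and *Bmp4* kept their direction in all 12 alternatives and passed in 11, with log2 differences of -2.46 to -2.04 for *Id3* and -2.16 to -1.43 for *Bmp4*. Without moderation 1 of the 8 genes passed (*Bmpr1a*, with a within-set spread smaller than its counting error) and 26 genes in all. The count over all genes, 638, was 285 with no filter on low values, 1086 with voom on recovered reads and 67 to 359 when 1 library was left out. It was 103 without Ring1B-KD 2, 209 without control 1, 330 without control 2, 334 without Ring1B-KD 1 and 359 without Dzip3-KD 1. *Smad5*, at 0.01, ranged from -0.048 to 0.089 when 1 library was left out. For the label Dzip3-KD, 0 genes passed in the fit of 6 libraries (1411 at an unadjusted p under 0.05), 24 passed with only the 2 groups compared, among them 1 of the 8, and leaving out 1 library gave 0 to 27 genes and 0 to 2 of the 8, where a label with 1 library is assumed to vary like the others. For the label Ring1B-KD no alternative called a gene, and *Bmp4* ranged from -1.27 to 0.22 when 1 library was left out and was 0.22 with the file set as a block. For the word Ring1BKD the count of 48 genes was 21 with a pseudocount of 0.1, 0 with no filter, 0 without moderation, 0 with no set term, 78 with voom and 3 to 61 with 1 library left out, the lowest without Dzip3-KD 1. For the word Dzip3KD it was 4 with voom and 0 to 4 with 1 library left out. Near 0, *Bmp4* changed sign for Ring1BKD with 75th percentile scaling (0.012) and voom (0.014) and ranged from -0.26 to 0.16 with 1 library left out, and for Dzip3KD it was 0.026 with that scaling, 0.14 with voom and -0.21 to 0.21 with 1 left out. With 1 library left out, *Id3* ranged from -0.24 to 0.31 for Ring1BKD and from -0.71 to 0.33 for Dzip3KD, and *Id2* from -0.19 to 0.81 for Dzip3KD. Where no construction shows it, the cause was not tested. Scaling moved the median of all genes by 0.02 to 0.08.

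The replicate numbers of the labels did not pair the libraries. Deviations from the group means correlated at -0.24 to 0.04 between libraries of the same number. With the replicate block 1 gene passed for the label Dzip3-KD and 0 for Ring1B-KD, and 0 of the 8 in either. A crossed pairing of control and Dzip3-KD, added after seeing the data, called 0 genes and 0 of the 8. Depth limits *Id1*, *Id2* and *Smad6*, which rest on at most 25 reads per library, *Bmp4*, which rests on at most 35, and *Id3* in the second set, which rests on at most 13.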
